A study of Homo sapiens with 24 samples.

Results

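MGMT and 7 further genes (MSH6, PMS2, MPG, APEX1, ALKBH2, ALKBH3, and PARP1) were followed across 4 glioblastoma cell lines. Their products act on alkylated DNA or on the wrong pairs and breaks that follow from it. The genes were taken by symbol for their known part in the response to temozolomide, an alkylating drug, and make up 8 of the 43037 genes in the deposited values. CAGE-Seq, which counts tags from the capped 5′ ends of transcripts, had been performed on DBTRG-05MG, T98G, U251MG, and U87MG, all established lines. Each had been stably transduced in 2 ways, followed by what the methods of the study call clonal selection, with puromycin. The “WWOX” variant received a lentivirus overexpressing the tumor suppressor WWOX from a CMV promoter, and the “Vec” variant received the Puro-Blank control virus, so all 8 groups carried a lentiviral insert and had gone through selection. The labels name no treatment with an alkylating drug. The medium differed between lines (MEM for T98G, RPMI 1640 for DBTRG-05MG, EMEM for U251MG and U87MG) and cannot be told apart from the line. There were 3 libraries per group and 24 in all, and the methods of the study call the 3 biological replicates. The number of selected populations behind each group is not given in the sources used here. A difference between variants can therefore not be told apart from one between selected populations.

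The libraries held 10756072 to 16953689 tags on genes (median 14584829). Values are CPM, tags scaled to a common library total, and since each transcript gives its tag at the 5′ end, CPM were not divided by gene length. A count of 3 tags, used here as the limit of detection for a library, equals 0.177 to 0.279 CPM. All 8 genes reached 5 CPM in 1 or more libraries and so were among the 12327 genes tested. WWOX itself, the check of the labels, had a log2FC (“WWOX” minus “Vec”) of 0.39 in DBTRG-05MG (adjusted p = 0.744, limma), 0.01 in U251MG (adjusted p = 1.0), 0.39 in T98G (adjusted p = 0.512), and 0.67 in U87MG (adjusted p = 0.108), so the targeted gene did not pass the threshold of 0.05 in any line, and the groups are named here as labelled. The variants did not overlap in WWOX CPM in U87MG (means of 62.7 in “WWOX” and 37.9 in “Vec”). The same held in DBTRG-05MG (29.4 and 21.3 CPM). Libraries overlapped in T98G (means of 55.6 and 43.3 CPM) and in U251MG. In U251MG “WWOX” the libraries held 56.7, 17.4, and 38.0 CPM of WWOX against 31.4, 36.8, and 32.1 CPM in “Vec”. The methods of the study report that the efficiency of transduction was established by Western blot. The transgene starts at the viral promoter, and whether its tags were assigned to WWOX is not stated. Of the mesenchymal markers, CD44 lay between 678 and 3520 CPM in all 24 libraries and VIM between 13.5 and 71.7 CPM, while CHI3L1 was at 180.1 to 820.2 CPM in U87MG and at 0.059 to 1.43 CPM in DBTRG-05MG. PTPRC of leukocytes and PECAM1 of endothelium had 3 tags or fewer in each library, and EPCAM of epithelium exceeded 3 tags in 4 of 6 T98G libraries (up to 0.914 CPM) and in 1 of 6 in each other line. GFAP of astrocytes was at 114 to 3226 CPM in U251MG and at 0.79 to 11.6 CPM in the other lines. SOX2 of neural stem cells had 3 tags or fewer in all 6 U87MG libraries and reached 0.562 CPM in T98G. It was at 43.9 to 90.5 CPM in DBTRG-05MG and 31.0 to 268 CPM in U251MG. S100B and NES also had their highest medians in U251MG (191 and 57.2 CPM). OLIG2 went the other way, with 3 tags or fewer in 5 of 6 U251MG libraries and 0.984 to 3.57 CPM in T98G. Markers that define glial cells were thus low or absent in part of these lines. The 3 U251MG “WWOX” libraries differed from each other more than the replicates of any other group (chi-square of tags per degree of freedom 242 to 386, against 27.4 to 154 in the other groups).

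Alkylating drugs put methyl groups on the bases of DNA, and cells answer in several ways. MGMT takes the group from guanine onto itself and is used up by doing so, and methylation of CpG sites in its promoter, known to silence the gene, marks glioblastomas that respond to temozolomide. Where the group on guanine stays, mismatch repair recognizes the wrong pair that forms at replication, with MSH6 in the complex that finds the mismatch and PMS2 in the complex that nicks the strand. Other methylated bases are cut out by base excision repair, in which the glycosylase MPG removes the base, the endonuclease APEX1 opens the strand, and PARP1 senses the break. ALKBH2 and ALKBH3 instead reverse the damage by oxidation.

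CAGE tags come from promoters, so the stretches in front of the genes are shown for MGMT, which has the most CpG sites among the genes, and APEX1, which has the fewest. They are the RefSeq sequences (GRCh38.p14), 5′ to 3′ on the plus strand, at chr10:129466991-129467189 and chr14:20454976-20455190, ending at the last base before the gene start in GENCODE 44, with each CpG in capitals.
MGMT: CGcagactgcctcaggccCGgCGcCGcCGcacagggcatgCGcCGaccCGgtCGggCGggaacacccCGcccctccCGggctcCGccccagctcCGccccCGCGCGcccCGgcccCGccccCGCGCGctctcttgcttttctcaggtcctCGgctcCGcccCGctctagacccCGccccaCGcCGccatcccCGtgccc
APEX1: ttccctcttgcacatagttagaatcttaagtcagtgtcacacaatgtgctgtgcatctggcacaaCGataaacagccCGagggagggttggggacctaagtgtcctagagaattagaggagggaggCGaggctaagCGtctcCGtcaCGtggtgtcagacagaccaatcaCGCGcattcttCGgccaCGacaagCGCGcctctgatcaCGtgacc
These stretches hold 29 CpG in 199 bases for MGMT and 13 in 215 bases for APEX1. In the 250 bases before the RefSeq start, MGMT has 36 CpG, and 4.85% of 35116 promoters in the table have as many or more (median 11). APEX1 has 16, a number that 41.0% of promoters reach. All 8 genes were found in the table, and ALKBH3 had 18, ALKBH2 19, PARP1 26, MPG 27, PMS2 20 and 22 at 2 starts, and MSH6 21 to 34 at 4 starts. These are counts of letters, and the methylation of the sites was not measured here.

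MGMT (ENSG00000170430.10, chr10:129467190-129770983, plus strand, hg38) ranged over the lines from undetected to more than 100 CPM. T98G “Vec” libraries held 101, 90.6, and 149 CPM, and T98G “WWOX” libraries held 144, 120.3, and 95.8 CPM. U251MG “Vec” libraries held 1.70, 1.99, and 0.603 CPM (21, 25, and 9 tags), and U251MG “WWOX” libraries held 4.05, 7.58, and 4.13 CPM (59, 106, and 61 tags). In U87MG the gene had 2, 0, and 1 tags in “Vec” and 1, 1, and 0 in “WWOX”, and in DBTRG-05MG 0, 1, and 0 tags in “Vec” and 0 in all “WWOX” libraries. T98G thus lay far above every other line, U251MG stood between, and the 12 libraries of U87MG and DBTRG-05MG were all at or under 3 tags, where MGMT was not detectable at this depth. In “Vec”, T98G averaged 114 ± 31.1 CPM (SD, n = 3), U251MG 1.43 ± 0.732 CPM, and the ratio of these means was 79.3. In “WWOX” the means were 119.9 ± 23.9 and 5.25 ± 2.02 CPM, with a ratio of 22.8. Against the limit of 3 tags per library, T98G “Vec” was at least 519.9-fold higher than U87MG “Vec”, and the bound against DBTRG-05MG “Vec” was at least 580.2-fold. For U251MG “Vec” the bounds were at least 6.55-fold over U87MG and at least 7.31-fold over DBTRG-05MG.

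**Figure D1:**
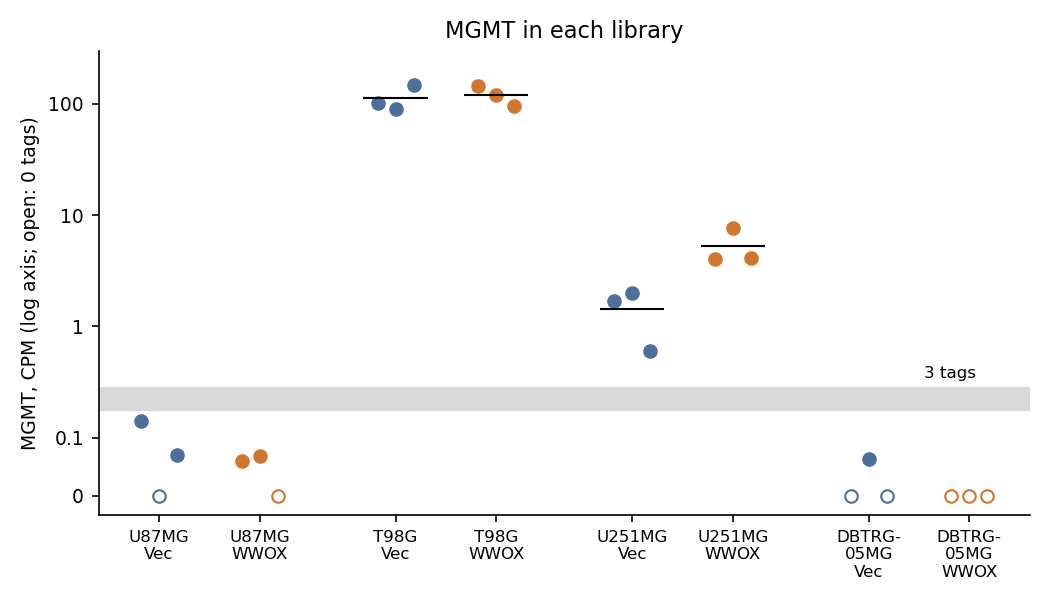
MGMT in CPM (log axis, with 0 drawn at the lowest tick) in each of the 24 libraries, by line and variant. Each point is a library (blue “Vec”, orange “WWOX”), open points hold 0 tags, black lines are group means of T98G and U251MG, and the gray band marks the CPM of 3 tags (0.177 to 0.279). T98G libraries lie at 90.6 to 149 CPM, U251MG libraries at 0.603 to 7.58 CPM, and all others under the band.

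In the limma model, 5 of the 6 pairs of lines differed in MGMT in “Vec” and 5 of 6 in “WWOX”, the exception in both being U87MG against DBTRG-05MG, where both groups are at the floor and no fold is given. Over all genes, 37.9% of gene-by-pair tests passed in “Vec” and 42.0% in “WWOX”. T98G exceeded U251MG by 6.10 on the log2 scale in “Vec” (SE 0.35, adjusted p = 4.13e-12, limma) and by 4.60 in “WWOX” (SE 0.35, adjusted p = 4.11e-10). U251MG exceeded DBTRG-05MG with adjusted p = 0.000443 in “Vec” and 6.21e-08 in “WWOX”, and U87MG with adjusted p = 0.000761 and 7.09e-08. The line order T98G, U251MG, and then the undetected lines held in both variants without overlap of libraries.

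Between variants, MGMT was higher in “WWOX” than in “Vec” in U251MG, in 3 of 3 libraries, with 5.25 ± 2.02 CPM against 1.43 ± 0.732 CPM (SD, n = 3) and a ratio of means of 3.67. The lowest “WWOX” library, at 4.05 CPM (exact Poisson 95% interval 3.08 to 5.22), lay above the highest “Vec” library, at 1.99 CPM (1.29 to 2.94). These intervals, added after seeing the data, cover counting error only. This log2FC was 1.61 (SE 0.35, 95% confidence interval 0.88 to 2.33, adjusted p = 0.0499, limma), which puts the call on the threshold. Under 12 alternatives of processing and model, adjusted p ran from 0.0129 to 0.911 and the call was lost in 9, among them a model with a single library in an arm. It was also lost in 18 of 24 fits that each left out a library, with a log2FC between 1.13 (without “WWOX” replicate 2) and 1.84 (without “WWOX” replicate 3), and an exact permutation test of the 6 libraries gave p = 0.1 (two-sided), the smallest that 3 against 3 allows. In models added after seeing the data, adjusted p was 0.442 with T98G and U251MG alone, that is without the 12 libraries at the floor, and with replicate 3 as the only U251MG “WWOX” library log2FC was 1.13 (adjusted p = 0.298), where the lone library is assumed to vary like those of the other groups. MGMT was the only one of the 8 genes called in U251MG, where 0.308% of all genes tested were. In T98G, the line with a high level, the “Vec” and “WWOX” libraries overlapped and the log2FC was 0.10 (SE 0.35, 95% confidence interval −0.63 to 0.83, adjusted p = 0.950). A direct comparison of the log2FC of MGMT between U251MG and T98G is not reported here.

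The group pattern of MGMT was matched most closely by HSPA1A (a heat shock protein with a near-identical neighboring copy, so its tags are uncertain), NPTX1 (a neuronal pentraxin), PLIN2 (a lipid droplet coat protein), CLSTN2 (a calsyntenin), and PDGFD (a growth factor). Likeness was the root mean square difference of the 8 centered group means of log2 CPM, which was 0.72 for HSPA1A and 1.06 for PDGFD. Since MGMT peaks in T98G, choosing genes by its pattern fixed T98G as their highest line. Their line means there ran from 41.1 CPM (CLSTN2) to 149 CPM (HSPA1A). None of the 4 tested genes within 2 Mb of MGMT had its highest line in T98G. GLRX3 averaged 182 CPM in T98G “Vec” against 326 CPM in U87MG “Vec”, and PTPRE, MKI67, and C10orf143 had no group mean in T98G over 21.0 CPM. Genes of chromosome 10 together had a median log2 difference between U87MG and T98G of 0.22 in “Vec”, opposite in sign to that of MGMT.

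MSH6 (ENSG00000116062.17, chr2:47695530-47810063, plus strand) was well above the floor in every library, between 21.7 and 72.2 CPM. U87MG “Vec” libraries held 38.0, 58.0, and 72.2 CPM, and U87MG “WWOX” libraries 39.8, 39.2, and 35.8 CPM. U251MG “Vec” libraries held 39.1, 41.7, and 39.0 CPM, and U251MG “WWOX” libraries 27.8, 23.0, and 29.6 CPM. In U251MG the variants did not overlap and “WWOX” was lower, while in U87MG they overlapped in CPM and not on the scaled log2 values. The log2FC was −0.57 in U251MG (SE 0.23, 95% confidence interval −1.05 to −0.09, unadjusted p = 0.0225, adjusted p = 0.337) and −0.55 in U87MG (SE 0.23, unadjusted p = 0.026, adjusted p = 0.302). In T98G it was 0.05 (adjusted p = 0.964) and in DBTRG-05MG −0.05 (adjusted p = 0.997), and the mean of the 4 lines was −0.28 (SE 0.12, unadjusted p = 0.0242, adjusted p = 0.250). No comparison of variants thus passed the threshold for MSH6.

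Between lines MSH6 was highest in U87MG and lowest in DBTRG-05MG by line mean (47.2 and 27.8 CPM). U87MG exceeded DBTRG-05MG by 1.25 on the log2 scale in “Vec” (SE 0.23, adjusted p = 0.000126) and by 0.75 in “WWOX” (adjusted p = 0.0110). It also exceeded U251MG by 0.64 in “Vec” (adjusted p = 0.0309) and 0.66 in “WWOX” (adjusted p = 0.0256), and T98G exceeded DBTRG-05MG by 0.58 (adjusted p = 0.0478) and 0.68 (adjusted p = 0.0198). These 3 pairs passed in both variants. U87MG against T98G passed in “Vec” only (0.66, adjusted p = 0.0253, against 0.06, adjusted p = 0.860), and T98G against U251MG in “WWOX” only (0.60, adjusted p = 0.0441, against −0.02, adjusted p = 0.962). A direct comparison of those pairs between variants is not reported here. The MSH6 call of U87MG against DBTRG-05MG in “Vec” was kept whichever library was left out. By contrast, T98G against DBTRG-05MG in “Vec” passed in 7 of 24 fits that left out a library, T98G against U251MG in “WWOX” in 12, and U87MG against U251MG in “Vec” in 19. The other 4 MSH6 calls were each lost in 1 to 4 of these fits, with adjusted p up to 0.130. Of 10 alternatives of processing and model, 5 lost T98G against DBTRG-05MG in “Vec”, with values from 0.34 on CPM as deposited, without rescaling, to 1.07 under a correction for GC content and length (adjusted p up to 0.344). T98G against U251MG in “WWOX” was lost in 4 (0.41 to 0.81, adjusted p up to 0.253), U87MG against T98G in “Vec” in 2 (adjusted p up to 0.0673), and U87MG against U251MG in 2 in each variant (adjusted p up to 0.222 in “Vec” and 0.142 in “WWOX”). In “WWOX”, U87MG against DBTRG-05MG (0.47 to 1.22, adjusted p up to 0.162) and T98G against DBTRG-05MG (0.37 to 1.25, adjusted p up to 0.287) were lost on CPM as deposited. The MSH6 call of U87MG against DBTRG-05MG in “Vec” was kept in all 10.

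PMS2 (ENSG00000122512.16, chr7:5970925-6009130, minus strand) had its lowest line mean in U87MG (12.7 CPM, against 29.9 CPM or more elsewhere). Its “Vec” libraries there held 15.7, 11.7, and 15.6 CPM and its “WWOX” libraries 11.7, 11.9, and 9.49 CPM. DBTRG-05MG libraries held 35.6, 43.8, and 42.0 CPM in “Vec” and 50.5, 41.7, and 34.5 CPM in “WWOX”. Every DBTRG-05MG library lay above every U87MG library, by a log2 difference of 1.21 in “Vec” (SE 0.24, adjusted p = 0.000310, with U87MG minus DBTRG-05MG at −1.21) and of 1.61 in “WWOX” (−1.61, adjusted p = 1.07e-05). U87MG was also lower than T98G by 0.84 in “Vec” (−0.84, adjusted p = 0.00795) and by 1.60 in “WWOX” (−1.60, adjusted p = 1.25e-05), and lower than U251MG by 0.88 (−0.88, adjusted p = 0.00609) and 1.12 (−1.12, adjusted p = 0.000755). The other 3 pairs did not pass in either variant. Genes of chromosome 7 had a median log2 difference of −0.02 between U87MG and T98G in “Vec”, −0.23 against U251MG, and −0.25 against DBTRG-05MG. In “WWOX” these medians were −0.22, −0.45, and −0.37 in the same order. All had the same sign as the PMS2 differences and were smaller in size.

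U251MG “WWOX” libraries spanned 50.1, 13.3, and 29.7 CPM of PMS2, the widest spread of the gene in any group, with replicate 2 inside the U87MG range. Between variants the log2FC of PMS2 was −0.01 in DBTRG-05MG (adjusted p = 1.0), −0.17 in U251MG (adjusted p = 0.871), 0.35 in T98G (adjusted p = 0.636), and −0.41 in U87MG (SE 0.24, adjusted p = 0.614). PMS2 has many near-identical copies, of which PMS2P1 had a median of 43.9 CPM and PMS2CL 11.2 CPM over the 24 libraries, and how tags matching several places were treated is not stated, so its values are uncertain. With MSH6 highest and PMS2 lowest in U87MG, the ratio of MSH6 to PMS2 CPM was 2.42, 4.97, and 4.64 as lowest, highest, and median library in U87MG “Vec”, against 0.496, 0.895, and 0.695 in DBTRG-05MG “Vec”. U87MG and DBTRG-05MG lie at opposite extremes of both genes by line mean. The separation of this ratio therefore follows from the choice of lines and is not a further result.

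**Figure D2:**
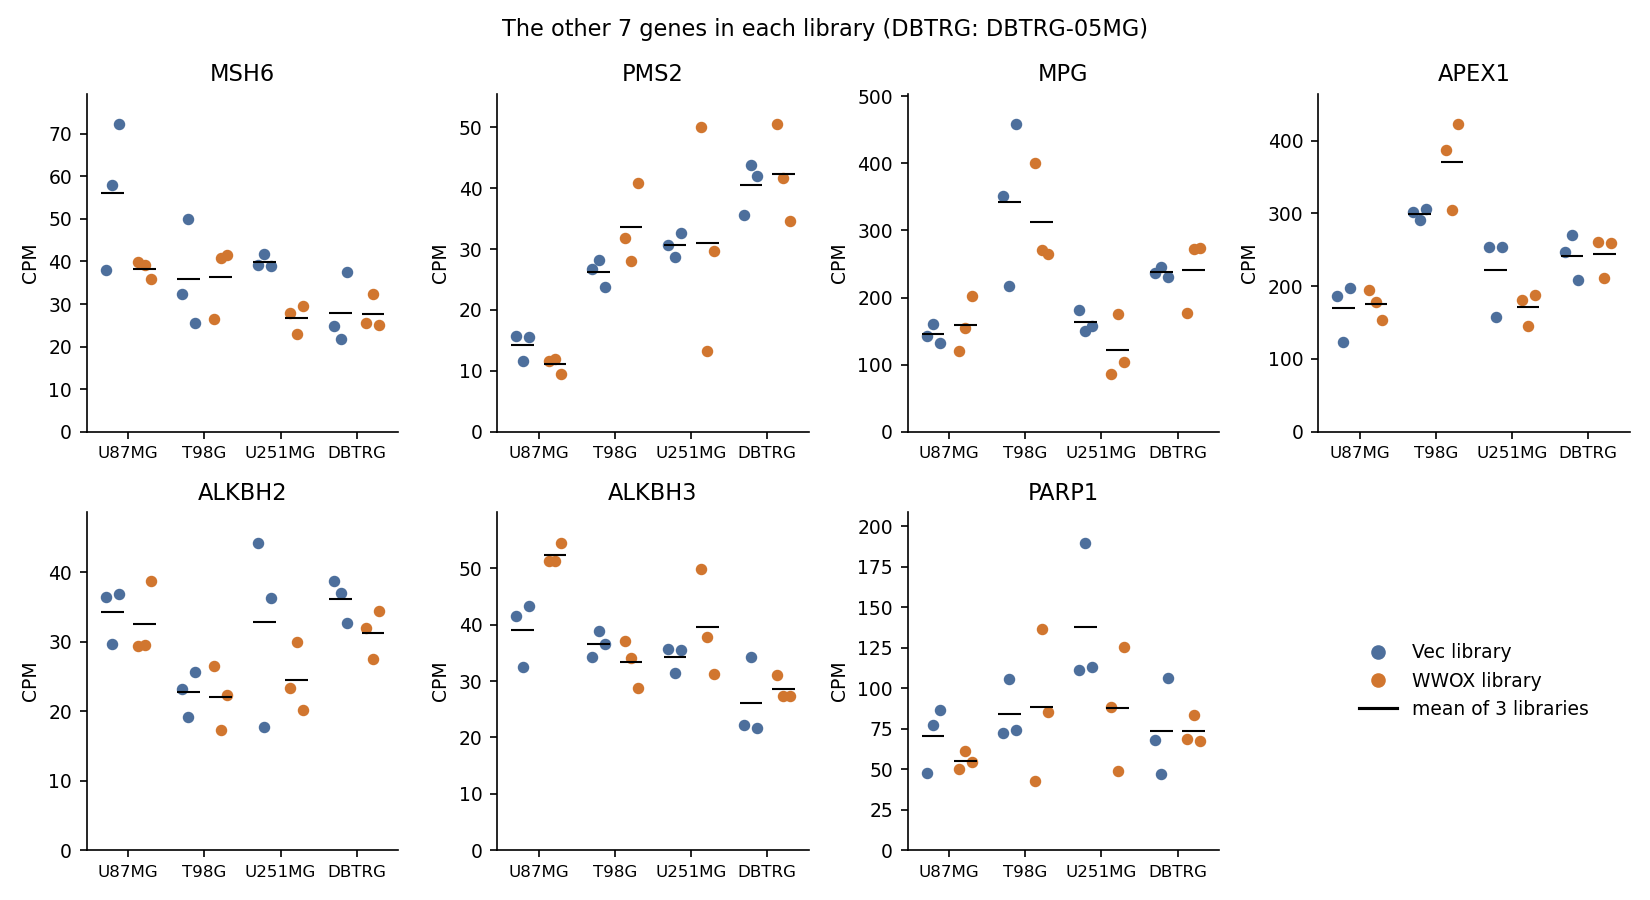
CPM (linear axes from 0) of MSH6, PMS2, MPG, APEX1, ALKBH2, ALKBH3, and PARP1 in each library, by line and variant, with blue for “Vec”, orange for “WWOX”, and black lines for group means. PMS2 lies at 9.49 to 15.7 CPM in U87MG and at 34.5 to 50.5 CPM in DBTRG-05MG, MPG and APEX1 have their highest libraries in T98G (458 and 422 CPM), and the “Vec” and “WWOX” points of most panels overlap.

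MPG (ENSG00000103152.12, chr16:77007-85851, plus strand) and APEX1 (ENSG00000100823.12, chr14:20455191-20457772, plus strand) act in succession in base excision, and both were highest in T98G. T98G “Vec” libraries held 351, 218, and 458 CPM of MPG, and U87MG “Vec” libraries 143, 160.2, and 132 CPM. T98G “WWOX” libraries held 400.1, 271, and 265 CPM, and U87MG “WWOX” libraries 120.2, 155, and 203 CPM. All 6 T98G libraries were above the 6 of U87MG. T98G exceeded U251MG by 1.20 in “Vec” (SE 0.38, adjusted p = 0.0188) and 1.59 in “WWOX” (adjusted p = 0.00206). U87MG was below T98G with log2 differences of −1.16 (adjusted p = 0.0190) and −1.02 (adjusted p = 0.0366). The genes of chromosome 16, on which MPG lies, had median log2 differences of the same sign, −0.43 between U87MG and T98G in “Vec” and 0.50 between T98G and U251MG, smaller in size than those of MPG. Of these 4 MPG calls, T98G against U251MG in “WWOX” was kept whichever library was left out. The others were lost in part. Without T98G “Vec” replicate 3, U87MG minus T98G in “Vec” was −0.80 (adjusted p = 0.129) and T98G minus U251MG was 0.85 (adjusted p = 0.128). They were also lost without T98G “Vec” replicate 1 (adjusted p = 0.0576 and 0.0601), the first without U87MG “Vec” replicate 3 (adjusted p = 0.0749), and the second without U251MG “Vec” replicate 2 (adjusted p = 0.0650). Without U87MG “WWOX” replicate 1, U87MG minus T98G in “WWOX” was −0.77 (adjusted p = 0.156), and it was also lost without U87MG “WWOX” replicate 2 (adjusted p = 0.0767) and T98G “WWOX” replicates 1 (adjusted p = 0.158) and 2 (adjusted p = 0.0505).

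APEX1 was at 301, 291, and 306 CPM in T98G “Vec” and at 187, 124, and 198 CPM in U87MG “Vec”. In “WWOX” the values were 386, 305, and 422 CPM in T98G and 195, 178, and 153 CPM in U87MG. T98G was again above U87MG in every library, with log2 differences of U87MG minus T98G of −0.83 in “Vec” (SE 0.24, adjusted p = 0.00785) and −1.12 in “WWOX” (adjusted p = 0.000628). T98G also exceeded U251MG by 0.65 in “Vec” (adjusted p = 0.0392) and 1.30 in “WWOX” (adjusted p = 0.000144). It exceeded DBTRG-05MG by 0.92 in “WWOX” (adjusted p = 0.00326) and by 0.57 in “Vec” (adjusted p = 0.0620), which did not pass. Chromosome 14 genes had a median log2 difference of 0.55 between U87MG and T98G in “Vec”, opposite in sign to APEX1. Without U251MG “Vec” replicate 2, APEX1 in T98G minus U251MG was 0.39 in “Vec” (adjusted p = 0.253), and it was also lost without T98G “Vec” replicates 1 (adjusted p = 0.0929) and 3 (adjusted p = 0.150). The same call was lost in 4 of 10 alternatives of processing and model (0.47 to 0.66, adjusted p up to 0.115). Without U87MG “Vec” replicate 2, APEX1 in U87MG minus T98G was −0.66 (adjusted p = 0.0558).

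Neither MPG nor APEX1 passed between variants in any line. For MPG the log2FC ran from −0.47 in U251MG (95% confidence interval −1.27 to 0.32) to 0.05 in U87MG, and for APEX1 from −0.34 in U251MG to 0.31 in T98G (95% confidence interval −0.19 to 0.80). The 95% confidence interval of MPG included 0 in each of the 4 lines, and in U87MG it ran from −0.74 to 0.84. Changes within a line's own interval therefore remained possible in that line.

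PARP1 (ENSG00000143799.14, chr1:226360210-226408154, minus strand) varied widely within groups. U251MG “Vec” libraries held 111, 189.9, and 113 CPM and U251MG “WWOX” libraries 88.2, 49.1, and 125 CPM, which overlapped in CPM and not on the scaled log2 values. Its log2FC in U251MG was −0.70 (SE 0.33, 95% confidence interval −1.38 to −0.02, unadjusted p = 0.0430, adjusted p = 0.409). T98G “WWOX” libraries ranged from 42.9 to 137 CPM. In U87MG the log2FC was −0.37, in T98G −0.05, and in DBTRG-05MG 0.00, with adjusted p from 0.859 to 1.0. Of the pairs of lines, U251MG against DBTRG-05MG passed in “Vec” (1.00, adjusted p = 0.0230) and not in “WWOX” (0.29, adjusted p = 0.521). Without DBTRG-05MG “Vec” replicate 2 the PARP1 difference in “Vec” was 0.75 (adjusted p = 0.128), and it was also lost without DBTRG-05MG “Vec” replicate 1 (adjusted p = 0.0563) and U251MG “Vec” replicate 2 (adjusted p = 0.114), and on CPM as deposited (adjusted p = 0.0716).

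ALKBH2 (ENSG00000189046.11, chr12:109088188-109093631, minus strand) was the most even of the 8 genes over lines by the ratio of highest to lowest line mean. Its line means ran from 22.4 CPM in T98G to 33.7 CPM in DBTRG-05MG, a ratio of 1.51, and 0 of 6 pairs of lines passed in either variant. Between variants its log2FC lay between −0.33 (U251MG, adjusted p = 0.777) and −0.04 (T98G, adjusted p = 0.986). U251MG “Vec” libraries alone spread from 17.7 to 44.3 CPM.

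ALKBH3 (ENSG00000166199.13, chr11:43880811-43920274, plus strand) was highest in U87MG. Its U87MG “Vec” libraries held 41.6, 32.5, and 43.3 CPM and its “WWOX” libraries 51.3, 51.4, and 54.5 CPM. DBTRG-05MG libraries held 22.2, 34.3, and 21.7 CPM in “Vec” and 31.0, 27.3, and 27.3 CPM in “WWOX”. In U87MG each “WWOX” library was above each “Vec” library, with a log2FC of 0.37 that did not pass (SE 0.24, 95% confidence interval −0.12 to 0.87, adjusted p = 0.675). U87MG exceeded DBTRG-05MG by 0.86 in “Vec” (adjusted p = 0.00542) and by 1.14 in “WWOX” (adjusted p = 0.000468). T98G exceeded DBTRG-05MG in “Vec” by 0.76 (adjusted p = 0.0141), and U87MG exceeded T98G in “WWOX” by 0.61 (adjusted p = 0.0462). The ALKBH3 difference between U87MG and T98G passed in 9 of 24 fits that left out a library, and without DBTRG-05MG “Vec” replicate 3 that between T98G and DBTRG-05MG was 0.59 (adjusted p = 0.0920), which was also lost without DBTRG-05MG “Vec” replicate 1 (adjusted p = 0.0578) and T98G “Vec” replicate 3 (adjusted p = 0.0651), and on CPM as deposited (adjusted p = 0.0559). Of 10 alternatives of processing and model, 2 lost the ALKBH3 difference between U87MG and T98G (adjusted p up to 0.0563).

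**Figure D3:**
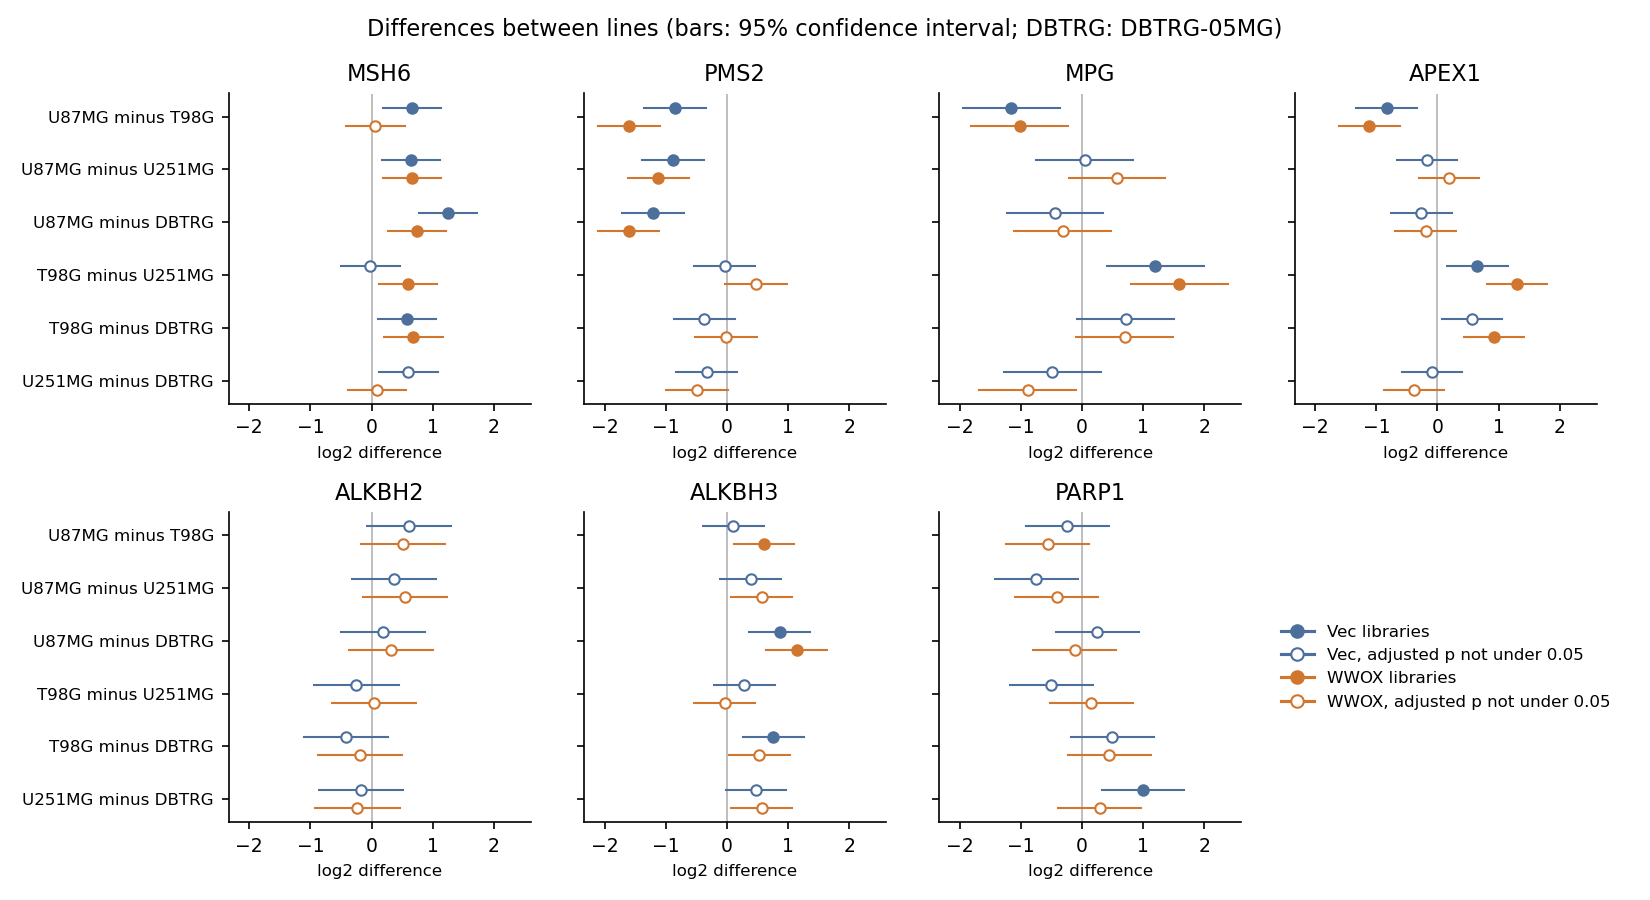
Differences between lines for the 7 genes detected in every library. Points are log2 differences (first line minus second), bars are 95% confidence intervals, blue is “Vec”, orange is “WWOX”, and filled points have an adjusted p under 0.05. MSH6 has 8 filled points, PMS2 6 (all in U87MG rows and below 0), APEX1 5, MPG 4, ALKBH3 4, PARP1 1, and ALKBH2 0.

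Over the 8 genes and 6 pairs of lines, 19 of 48 tests passed in “Vec” and 19 of 48 in “WWOX”, and 16 passed in both with the same sign. MGMT gave 5 of the 16, MSH6 3, PMS2 3, MPG 2, APEX1 2, and ALKBH3 1, while ALKBH2 and PARP1 gave 0. Shares of 19 in 48 lie close to the 37.9% and 42.0% of gene-by-pair tests that passed over all genes, so no difference in frequency is read from them. By pair, the genes that passed in “Vec” were 5 of 8 for U87MG against T98G (39.8% of all genes), 3 against U251MG (38.9%), and 3 against DBTRG-05MG (44.1%). T98G gave 3 against U251MG (32.4%) and 3 against DBTRG-05MG (41.0%), and U251MG gave 2 against DBTRG-05MG (31.6%). In “WWOX” the counts in the same order were 5 (41.0%), 3 (41.5%), 3 (47.2%), 4 (39.5%), 3 (44.7%), and 1 (37.9%). Leaving out each library in turn moved the counts to 14 to 21 in “Vec” and 15 to 24 in “WWOX”.

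Between variants, 0 of the 8 genes passed in DBTRG-05MG (1.03% of all genes tested did), 1 in U251MG (0.308%), 0 in T98G (1.14%), and 0 in U87MG (3.2%). For the mean of the 4 lines the count was 0 (1.73%), and for each line against the other 3 it was 0 (0.998% for DBTRG-05MG, 0.487% for U251MG, 1.56% for T98G, and 2.39% for U87MG), where MGMT enters with 2 lines at the floor. On scaled log2 values the variants kept apart, with no library of either inside the range of the other, for 3 of the 8 genes in U87MG (17.2% of all genes), 0 in DBTRG-05MG (19.8%), 3 in U251MG (10.5%), and 1 in T98G (16.2%). Before adjustment, a p under 0.05 was found for 1 gene in U87MG (11.5% of all genes), 0 in T98G (11.4%), 3 in U251MG (11.6%), 0 in DBTRG-05MG (7.58%), and 2 for the mean of the 4 lines (15.3%). With DESeq2 and with edgeR on the recovered tags the counts at the adjusted threshold were also 0 in DBTRG-05MG, T98G, and U87MG. The median log2FC of the 8 genes was −0.05 in DBTRG-05MG, −0.33 in U251MG, 0.01 in T98G, and −0.11 in U87MG, against medians of all genes between −0.04 and 0.01.

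**Figure D4:**
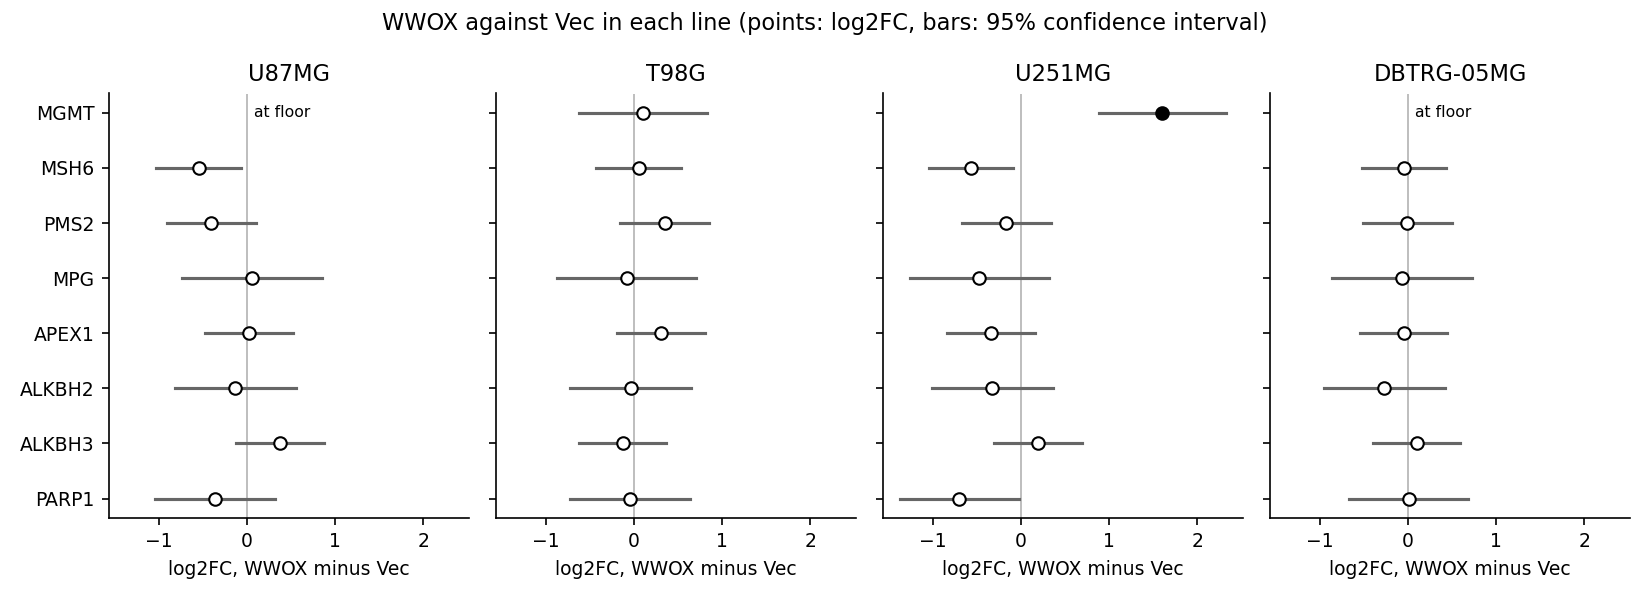
log2FC of “WWOX” minus “Vec” for the 8 genes in each line (points) with 95% confidence intervals (bars). Only MGMT in U251MG, at 1.61, has an adjusted p under 0.05 (filled), the intervals of MSH6 in U87MG and U251MG and of PARP1 in U251MG end below 0, and MGMT has no value in U87MG and DBTRG-05MG, where it is at the floor.

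Partners of the 8 genes in the same pathways were compared between variants. Of 17 mismatch repair partners, all tested, 0 passed in either direction in each line and for the mean of the 4 lines, with a median log2FC of −0.25 in DBTRG-05MG, −0.39 in U251MG, −0.06 in T98G, and −0.38 in U87MG. In that list 15 of 17 had a negative value in U87MG and 15 of 17 in U251MG, among them RPA1, part of the complex that covers single strands, with −0.62 in U251MG (SE 0.23, adjusted p = 0.274) and −0.40 for the mean of 4 lines (SE 0.12, adjusted p = 0.0858). Of 19 genes of base excision and single-strand break repair, 16 were tested and 0 passed, with medians from −0.21 (DBTRG-05MG) to 0.01 (T98G). The uracil glycosylase UNG had −0.76 in T98G (SE 0.24, adjusted p = 0.157) and −0.63 in DBTRG-05MG (adjusted p = 0.439). Of 10 genes of the AlkB family and the ASCC complex, which works with ALKBH3, 8 were tested and 0 passed, with medians from 0.01 (U87MG) to 0.18 (T98G). RPA1 and UNG were named after their values were seen.

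Growth-linked genes were followed beside MSH6 and PARP1. Of 18 proliferation genes, 18 had a negative log2FC in U251MG with a median of −1.19, and 16 of 18 in each other line with medians from −0.50 to −0.23, and 0 passed in any line. Their summed level was 885 to 2472 CPM in U251MG “Vec” and 248 to 1925 CPM in U251MG “WWOX”, and 917 to 3433 CPM in U87MG “Vec” and 878 to 2053 CPM in U87MG “WWOX”. In T98G it was 668 to 1390 CPM in “Vec” and 293 to 1277 CPM in “WWOX”, and in DBTRG-05MG 752 to 1527 CPM and 827 to 888 CPM. Fewer dividing cells and less RNA of these genes per cell cannot be told apart in bulk libraries. Over the 24 libraries, taken as deviations from their group mean, PARP1 followed the mean of the proliferation list with r = 0.77 (Spearman 0.85, and 0.87 without the 2 libraries farthest out on that list), and MSH6 with r = 0.62 (Spearman 0.68, and 0.77). The other genes were at r between −0.62 (PMS2) and −0.07 (MPG). The share of all genes with as large an r against this list is not given here, so the correlations are not read as particular to MSH6 and PARP1. The part of growth in the differences of MSH6 and PARP1 was not tested.

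MPG instead followed base composition. The correlation of each library's deviations with the GC content of genes ran from −0.58 (T98G “Vec” replicate 2) to 0.65 (T98G “Vec” replicate 3), and MPG deviations followed it with r = 0.92 (Spearman 0.94, and 0.91 without the 2 libraries farthest out). Among all genes, 0.333% had as large an r. For ALKBH2 r was 0.71, and 25.5% of all genes had as large an r. For MGMT it was 0.56 (0.36 without 2 libraries), with 44.2% of genes as large. The MGMT value includes the U87MG and DBTRG-05MG libraries at the floor. For MSH6 r was −0.27, with 76.1% of genes as large. The longest MPG transcript has 63.1% GC and that of MSH6 40.2%. A correction of every library for GC content and transcript length was added after seeing the data. Under it, T98G exceeded U251MG in MPG by 0.69 in “Vec” (adjusted p = 0.00186, limma) and 1.32 in “WWOX” (adjusted p = 8.1e-07). Without it these differences were 1.20 and 1.59. Over 10 alternatives, this correction among them, MPG in U87MG minus T98G ran from −1.25 to −0.86 in “Vec” and from −1.03 to −0.90 in “WWOX”. The part of base composition in these differences was not tested. These correlations describe 24 libraries that share groups and, through the centering, are not independent.

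**Figure D5:**
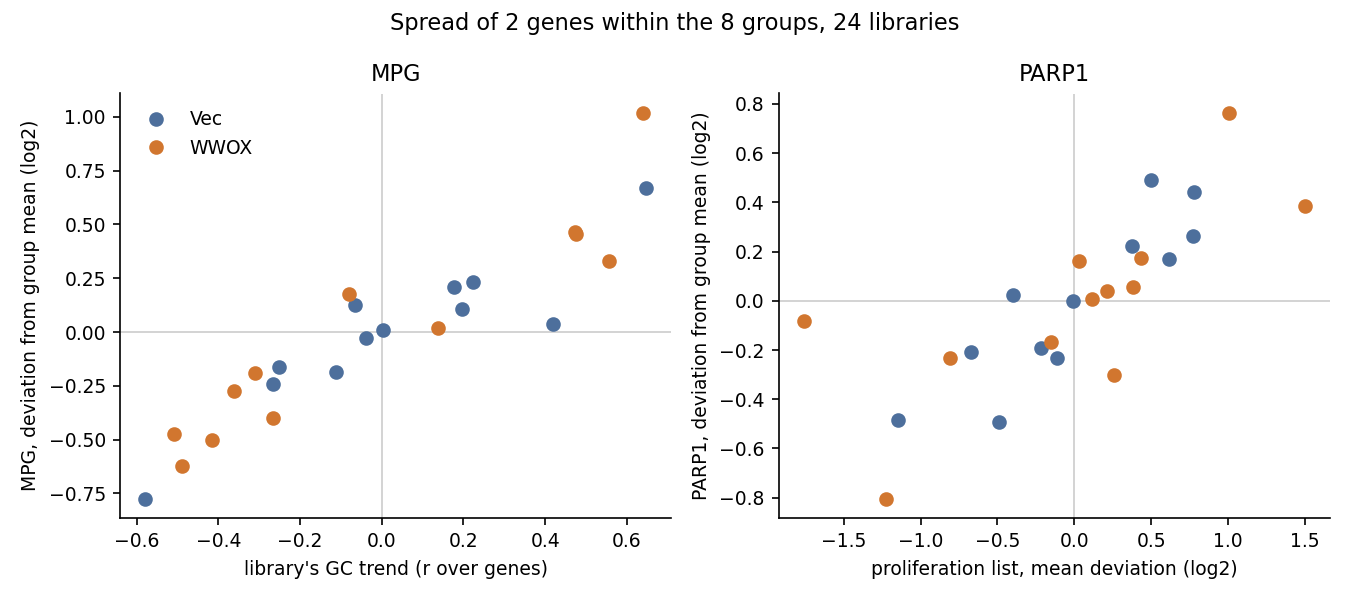
Deviation of MPG (left) and PARP1 (right) from the group mean (log2 of scaled CPM) in each of 24 libraries, against the library's GC trend (correlation over genes of its deviations with GC content) and against the mean deviation of 18 proliferation genes (log2). Blue is “Vec” and orange is “WWOX”, and the points rise together with r = 0.92 for MPG and r = 0.77 for PARP1.

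Several of these genes share ground with others. FBXO11 lies opposite MSH6 (median 16.5 CPM), NPRL3 opposite MPG (13.8 CPM), PIP4P1 opposite APEX1 (17.5 CPM), and ALKBH3-AS1 opposite ALKBH3 (0.0313 CPM). Whether tags were counted by strand is not stated, so tags that start within the shared stretches may have been mixed. In each of these pairs the annotated starts of both genes lie outside the shared stretch.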

How the data were processed

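CAGE-Seq CPM per gene were deposited by the authors for 24 libraries, and their notes name STAR, SAMtools, limma 3.42, and hg38. Annotation version, use of strand, and treatment of tags matching several places are not given in the sources used here. The 24 single-library tables were identical to the columns of the whole table. Tags were recovered from the CPM (100.0% of values within 0.01 of a whole number). The 8 genes and the gene lists were chosen with earlier results of these data known.

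Genes of at least 5 CPM in any library were rescaled by TMM (trim of 30% for M and 5% for A, unweighted), log2-transformed after adding 0.5 CPM, and fitted in limma 3.58.1 (trend, 8 groups, 16 residual degrees of freedom, R 4.3.3). Benjamini-Hochberg adjustment ran over all 12327 genes, with a threshold of 0.05. A fold on this scale understates changes of low genes. edgeR 4.0.16 and DESeq2 1.42.0 were alternatives on recovered tags. Scripts were tested on simulated data. Symbols and positions follow GENCODE 44. Intervals of tags are exact Poisson at 95% and cover counting error only.

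Genes named were WWOX, the 8 genes, the 5 closest to MGMT over the 8 group means, and list genes past the threshold, of which there were 0. Outside this rule, cell type markers, neighbors of MGMT, near-identical copies, and overlapping genes were given as values, and RPA1 and UNG were chosen after their values were seen. Other alternatives were pseudocount, filter, rescaling, a replicate block, separate models, voom, and leaving out each library. Those added after seeing the data were a correction for GC content and length, a model of T98G and U251MG only, Poisson intervals of MGMT, and replicate 3 as the only U251MG “WWOX” library.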

Additional observations from a re-analysis of the deposited data

Results flagged for a closer look

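PMS2, whose product nicks the strand in mismatch repair, had log2FC of opposite sign in U87MG and T98G. All 3 “WWOX” libraries lay below the “Vec” libraries in U87MG (−0.41) and all 3 lay above them in T98G (0.35) on the scaled log2 values, a gap of 0.75. On plain CPM the libraries of both lines overlapped. Neither log2FC passed (adjusted p = 0.614 in U87MG and 0.636 in T98G, limma). On the scaled values the variants also kept apart for 17.2% of all genes in U87MG and 16.2% in T98G. The gap between these lines was not tested. Near-identical copies leave the PMS2 values uncertain. Against the mean of the other 3 lines, the PMS2 log2FC was −0.46 in U87MG (adjusted p = 0.706, limma) and 0.54 in T98G (adjusted p = 0.440).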

How the results depend on the processing

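The count of the 8 genes called in U251MG, 1 for MGMT, fell to 0 with a pseudocount of 0.1 or 1 CPM, with no filter, with a replicate block, with separate models, with edgeR, with voom, with T98G and U251MG only, and with replicate 3 as the only U251MG “WWOX” library, which is assumed to vary like the other groups. Left-out libraries put it at 0 to 1. The count for U251MG minus the other lines, 0, was 1 (MGMT, at the floor in 2 of those lines) on CPM as deposited and under the GC and length correction, and 0 to 1 with libraries left out. The cause was not tested. Same-numbered “Vec” and “WWOX” libraries had correlated deviations of −0.55 to 0.51, so the number was not taken as a pairing, and the replicate block gave MGMT an adjusted p of 0.0849 and 20 and 18 calls between lines in “Vec” and “WWOX”.

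Signs that turned all belonged to log2FC that did not pass. In T98G these were MSH6 (−0.018), MPG (0.18), and ALKBH2 (0.080) under the GC and length correction, and PARP1 with edgeR (0.079) and DESeq2 (0.10). In DBTRG-05MG they were MSH6 (0.010), PMS2 (0.051), and APEX1 (0.013) on CPM as deposited, MPG (0.091) and PARP1 (−0.0067) under the GC and length correction, and PARP1 with edgeR (−0.043) and DESeq2 (−0.049). For the mean of the 4 lines they were MGMT with edgeR (−0.076), APEX1 on CPM as deposited (0.0092) and under the GC and length correction (0.0070), and ALKBH3 with replicate 3 alone (−0.0029), which also turned ALKBH3 in U251MG (−0.35).

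With each library left out in turn, the following log2FC ranged across 0. For U87MG, MPG from −0.17 to 0.29 and APEX1 from −0.15 to 0.12. For T98G, MGMT from −0.14 to 0.41, MSH6 from −0.064 to 0.22, MPG from −0.47 to 0.26, ALKBH2 from −0.24 to 0.15, ALKBH3 from −0.25 to 0.0010, and PARP1 from −0.43 to 0.35. For U251MG, PMS2 from −0.51 to 0.11 and ALKBH3 from −0.015 to 0.46. For DBTRG-05MG, MSH6 from −0.17 to 0.12, PMS2 from −0.10 to 0.088, MPG from −0.23 to 0.18, APEX1 from −0.21 to 0.077, ALKBH3 from −0.074 to 0.35, and PARP1 from −0.24 to 0.25. For the mean of the 4 lines, PMS2 from −0.14 to 0.0093 and APEX1 from −0.081 to 0.019. Depth limits MGMT in U87MG and DBTRG-05MG, where up to 3 tags per library could not be told from 0.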
